A study of Homo sapiens with 6 samples.

Results

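The 8 human SMAD genes and the 2 SMURF ubiquitin ligase genes were examined in BxPC-3 tumors after oral deferasirox (DFX), an iron chelator. All array probes carrying the gene name SMAD1, SMAD2, SMAD3, SMAD4, SMAD5, SMAD6, SMAD7, SMAD9, SMURF1 or SMURF2 were taken, which gave 14 of the 50599 non-control probes and 10 of 36337 names. BxPC-3 is a human pancreatic adenocarcinoma cell line, grown here under the skin of nude mice until tumors measured 150 mm3. The DFX group received 200 mg/kg by gavage every second day, 3 times a week for 21 days, and the Control group received the saline vehicle. There were 3 tumors per group with 1 array each, all from 1 cell line in a host that lacks T cells. The files give no count of human against mouse RNA in a tumor.

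SMAD proteins carry signals of the TGF-β family from the membrane to the nucleus. SMAD2 and SMAD3 are phosphorylated by TGF-β and activin receptors, and SMAD1, SMAD5 and SMAD9 by bone morphogenetic protein (BMP) receptors. Both branches form complexes with SMAD4, the common partner, to regulate genes. SMAD6 and SMAD7 are inhibitory SMADs that are themselves induced by the pathway, and SMURF1 and SMURF2 are HECT-type ubiquitin ligases that mark SMADs and receptors for degradation. In pancreatic cancer SMAD4 is a frequently lost tumor suppressor, and BxPC-3 is known to carry a homozygous deletion of it. In the liver, BMP and SMAD signaling controls hepcidin, the iron hormone.

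SMAD6 signal was higher in all 3 DFX-treated tumors than in any Control tumor (fold 1.62, 95% interval 1.24 to 2.11). SMAD4 signal was near background and was lower after DFX at 1 of its 3 probes. SMAD1, SMAD2, SMAD3, the main SMAD5 probe, SMAD7, SMAD9, SMURF1 and SMURF2 had 95% intervals that included 0. No member passed the threshold after adjustment over all 31807 tested probes. The word "called" is used below for an unadjusted p under 0.05 in limma, and the adjusted p is given beside it.

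The probes that carry these results are 60 bases long, and 30 bases of each are shown so that the SMAD6 target and the 3 places at which SMAD4 was read can be seen. All lie on the plus strand, at hg19 positions of the array annotation, and each is written as the file gives it. The first pair of SMAD4 stretches meet end to end in the genome, and the third lies upstream of them.
SMAD6, chr15:67074263-67074292: gagatattaatgcccagacaaaaagctaat
SMAD4 (a), chr18:48611330-48611359: gtctgtggctaaaaaatagtcgaacctttc
SMAD4 (c), chr18:48611300-48611329: tggctttctgtatacttttgcctggttaaa
SMAD4 (b), chr18:48605060-48605089: aggagaaacacattcttattaattcttcac
The letters name the SMAD4 probes from brightest to dimmest. G and C made up 43.3% of the bases of SMAD4 probe (c) and 35.0% of the other 3 probes. Whether the probes lie in a coding exon or an untranslated region was not annotated here.

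Each value below is a normalized log2 intensity, quantile-normalized across arrays, and a difference of 1 is a doubling of signal. Levels are compared between tumors for one probe and never between probes. Of the 14 member probes, 11 passed the detection filter and were tested, and each of the 10 genes kept at least 1 probe. The scanner flagged 7 of the 14 as well above background on all 6 arrays, namely the single probes of SMAD1, SMAD2, SMAD3, SMAD6, SMAD7 and SMURF1 and the main SMAD5 probe. Signal well above background was found for 50.3% of all probes on the array of DFX replicate 2 and for 53.9% to 56.5% on the others. The arrays correlated at 0.980 to 0.990 over the tested probes. All 6 lay on 1 slide with the Control tumors in one row and the DFX tumors in the other, so row and treatment cannot be told apart.

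**Figure D1:**
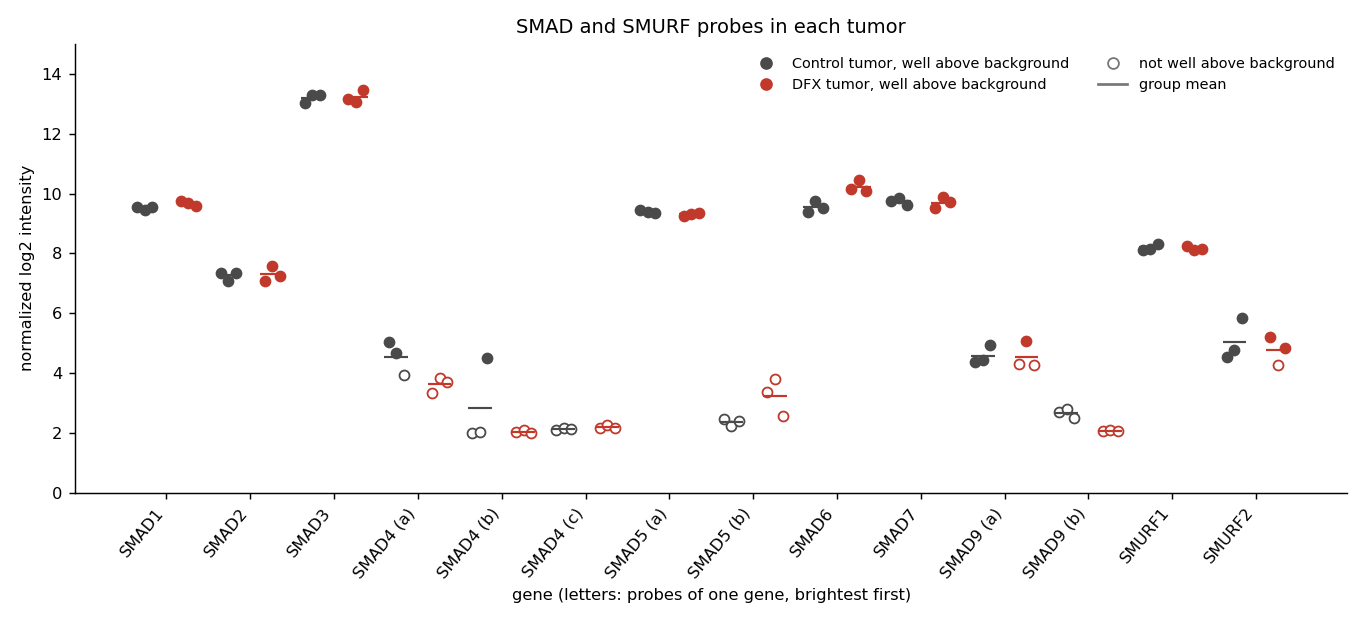
Normalized log2 intensity (y axis) of the 14 SMAD and SMURF probes (x axis) in the 3 Control and 3 DFX tumors, with filled points well above background, open points not, and lines at group means. SMAD6 shows 3 DFX points above all Control points. SMAD4 has filled points in Control tumors only, and the second SMAD5 and second SMAD9 probes have open points throughout.

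SMAD6, the inhibitory SMAD that acts mainly on the BMP branch, read 9.37, 9.74 and 9.51 under vehicle and 10.16, 10.45 and 10.09 under DFX. The lowest DFX tumor was above the highest Control tumor, so the groups did not overlap. The means were 9.54 ± 0.19 (SD, n = 3) and 10.23 ± 0.19 (SD, n = 3). The log2 fold change was 0.70 with a standard error of 0.16, and the signal was 62.0% higher. limma gave an unadjusted p of 0.00424 and an adjusted p of 0.513. Before normalization, the background-subtracted signal was 660, 793 and 882 under vehicle and 1084, 1298 and 1116 under DFX, which also did not overlap. Of the 31807 tested probes, 253 (0.795%) had a lower unadjusted p than SMAD6, and 427 of the 24367 probes that every array measured well above background had a larger rise. SMAD6 stayed below an unadjusted p of 0.05 under all 17 other settings that gave a p, with log2 fold changes of 0.58 to 0.80 and adjusted p-values of 0.320 to 0.778. The lowest, 0.58, came from median scaling, which put the median over every tested probe at -0.10.

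SMAD7, the other inhibitory SMAD and a feedback target of TGF-β, read 9.76, 9.86 and 9.61 in Control tumors against 9.51, 9.87 and 9.70 with DFX, and the groups overlapped. The log2 fold change was -0.048, with a 95% interval of -0.39 to 0.29 (limma, unadjusted p = 0.739, adjusted p = 0.937). The difference between SMAD6 and SMAD7 on the same array was therefore also written out, a choice made after the values were seen, so that no test is attached to it. SMAD6 minus SMAD7 came to -0.39, -0.12 and -0.10 under vehicle and 0.65, 0.58 and 0.39 under DFX. The mean moved from -0.20 ± 0.16 (SD, n = 3) to 0.54 ± 0.14 (SD, n = 3), and its size in one tumor carries no meaning because the probes differ. Against the median of the 6 other genes with probes well above background on every array, SMAD6 moved by 0.71. Both differences use the same SMAD6 readings, so they are not separate evidence of a SMAD6 change.

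SMAD4 was measured by 3 probes, and none was well above background in a DFX tumor. Probe (a) read 5.05, 4.66 and 3.92 in Control tumors and 3.33, 3.83 and 3.70 in DFX tumors, with Control replicates 1 and 2 well above background. The groups did not overlap, although the gap between the lowest Control and the highest DFX tumor was small. The means were 4.54 ± 0.57 (SD, n = 3) and 3.62 ± 0.26 (SD, n = 3), a log2 difference of -0.92 with a standard error of 0.31 (limma, unadjusted p = 0.0244, adjusted p = 0.555). Because the DFX tumors were not well above background, only a bound can be given, and the mean Control signal lay 1.16-fold above the floor. That mean includes Control replicate 3, which was itself not well above background. The bound applies to the main processing only. The log2 difference was -0.23 with normexp background correction and -0.14 with the raw mean signal. The call was lost without Control replicate 1 (-0.67) or 2 (-0.86), and without DFX replicate 1 (-0.78) or 3 (-0.96).

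The other SMAD4 probes did not repeat this pattern. Probe (b) read 4.49 in Control replicate 3 and 2.02 or less in the other Control tumors, with 2.04, 2.08 and 1.99 under DFX. It was well above background in Control replicate 3 alone, the Control tumor in which probe (a) was not. Probe (c), which abuts probe (a), read 2.11 to 2.16 in the Control tumors and 2.15 to 2.25 in the DFX tumors and was well above background on no array. In processed signal before normalization, probe (a) lay at 16.3 to 33.3 in the Control tumors and 9.66 to 14.9 in the DFX tumors. Probe (b) reached 23.8 in Control replicate 3 and stayed at 5.46 or less elsewhere, and probe (c) lay at 3.70 to 5.87 in all 6. In no DFX tumor did probe (b) or (c) have a background p-value under 0.05. Whether the scanner software had put substitute values in place of such readings was not examined. Probes (a) and (b) thus picked out different Control tumors and probe (c) none, so the probes share no SMAD4 level. Given the homozygous deletion that BxPC-3 is known to carry, these readings are not taken as SMAD4 expression of the tumor cells. What the probes bound was not tested.

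SMAD2 and SMAD3, the TGF-β and activin branch, had values that overlapped between the groups. SMAD3 read 13.03, 13.29 and 13.31 in Control tumors against 13.15, 13.07 and 13.46 with DFX. SMAD2 read 7.35, 7.08 and 7.35 in Control tumors and 7.09, 7.59 and 7.25 in DFX tumors. The log2 fold change was 0.017 for SMAD3, with a 95% interval of -0.36 to 0.39, and 0.046 for SMAD2, with an interval of -0.36 to 0.46 (limma, adjusted p = 0.984 and 0.951). For SMAD2 the interval runs from 0.78-fold to 1.37-fold, so a fall or a rise within that range is not excluded with 3 tumors per group.

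In the BMP branch, SMAD1 and SMAD5 values differed in opposite directions and neither was called. SMAD1 read 9.54, 9.45 and 9.56 under vehicle and 9.76, 9.67 and 9.58 under DFX. The DFX tumors all lay above the Control tumors, with the nearest pair at 9.58 and 9.56. The log2 fold change of 0.15 had a 95% interval of -0.10 to 0.41 (limma, unadjusted p = 0.190, adjusted p = 0.713). The main SMAD5 probe read 9.46, 9.39 and 9.36 in Control tumors against 9.24, 9.32 and 9.36 with DFX. Its groups did not overlap only by a hair, with the nearest pair at 9.362 (Control) and 9.361 (DFX). Its log2 fold change was -0.096, with an interval of -0.34 to 0.14 (limma, unadjusted p = 0.366, adjusted p = 0.80).

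SMAD5 has a second probe, 9883 bases away on chromosome 5, which the array annotation assigns to another transcript of the gene. It read 2.45, 2.24 and 2.39 in Control tumors and 3.35, 3.81 and 2.57 in DFX tumors, but was well above background on no array. limma gave a log2 difference of 0.88 with a standard error of 0.31 (unadjusted p = 0.0299, adjusted p = 0.570), in the opposite direction to the main probe. No fold is given for signal that near background. The call was lost on leaving out any 1 tumor except DFX replicate 3, with differences of 0.60 to 1.22.

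SMAD9, the third BMP-branch SMAD, was dim. Its brighter probe read 4.35, 4.45 and 4.95 under vehicle and 4.29, 5.06 and 4.28 under DFX, and 3 Control arrays but 1 DFX array had it well above background. The log2 fold change was -0.039 with a standard error of 0.28 (limma, unadjusted p = 0.891, adjusted p = 0.977). The second SMAD9 probe read 2.69, 2.79 and 2.49 in Control tumors against 2.05, 2.08 and 2.05 with DFX. It was well above background nowhere and did not pass the filter. Without the filter its log2 difference was -0.60 (limma, unadjusted p = 0.00129, adjusted p = 0.430), where the Control tumors passed the detection p-value and the DFX tumors did not. The DFX readings had an SD of 0.017 (n = 3) and could not be told from background, so no change is read from that p-value.

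Neither SMURF ligase was called. SMURF1 read 8.12, 8.16 and 8.32 in Control tumors and 8.26, 8.11 and 8.16 in DFX tumors, with a log2 fold change of -0.025 and a 95% interval of -0.29 to 0.24 (limma, adjusted p = 0.961). SMURF2 read 4.52, 4.78 and 5.82 under vehicle and 5.20, 4.28 and 4.83 under DFX, and DFX replicate 2 was not well above background. Its log2 fold change was -0.28 with an interval of -1.25 to 0.70 (limma, unadjusted p = 0.517, adjusted p = 0.861). Control replicate 3 was the highest SMURF2 tumor, and without it the change was 0.12. The SMURF2 interval was far wider than that of SMURF1, and a SMURF2 change anywhere from 0.42-fold to 1.63-fold is not excluded.

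**Figure D2:**
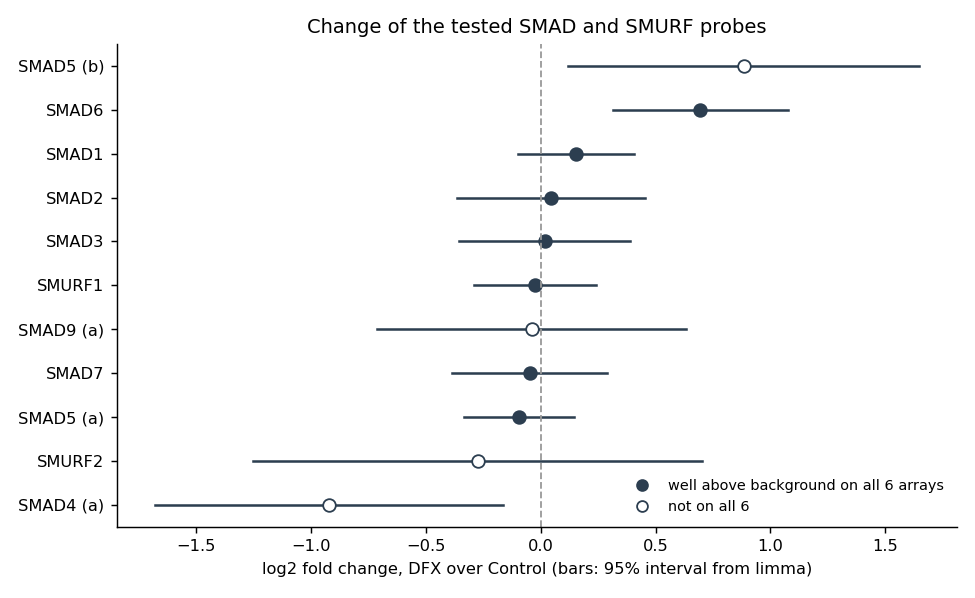
Log2 fold change of DFX over Control tumors (x axis, bars are 95% intervals from limma) for the 11 tested SMAD and SMURF probes (y axis), filled where the probe was well above background on all 6 arrays. SMAD6 is the one filled point whose interval, 0.31 to 1.08, leaves out 0.

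Over the members together, 3 of the 11 tested probes were called, 2 higher (SMAD6 and the second SMAD5 probe) and 1 lower (SMAD4), where 8.41% of all tested probes were called. After adjustment 0 members and 0% of all probes passed in limma. Among the 7 member probes that all arrays measured well above background, 1 was called, against 7.31% of all such probes. The groups did not overlap for 5 of the 11 tested members (SMAD1, SMAD4, both SMAD5 probes and SMAD6), where 15.5% of all tested probes separated. By brightest probe, the 10 genes had a median log2 fold change of -0.032, and all 23810 tested names one of -0.012. The median size of the change, sign aside, was 0.072 for the 10 genes and 0.15 for all names.

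**Figure D3:**
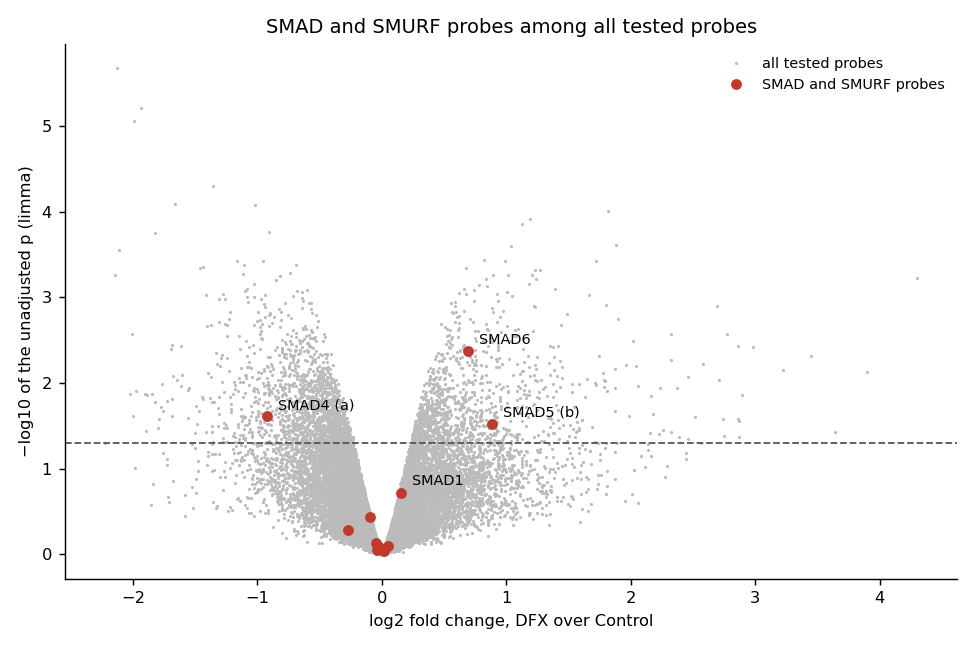
Each tested probe by its log2 fold change of DFX over Control (x axis) and the −log10 of its unadjusted limma p (y axis), with SMAD and SMURF probes in red and the dashed line at a p of 0.05. Of the 11 red points 3 lie above the line (SMAD4, SMAD6 and the second SMAD5 probe), among 2675 of 31807 probes that do.

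Genes that act with the SMADs were read from 7 lists of 74 genes in all, 72 of which had a tested probe. Of their 102 tested probes 12 (11.8%) were called, 5 higher and 7 lower, beside 8.41% of all tested probes, and 0 passed after adjustment in limma. By value 35 genes were higher and 37 lower, and the median log2 fold change of -0.032 stood beside -0.012 for all names. The corepressors and coactivators that sit on SMAD complexes had 0 of 12 probes called. The adjusted p-values of all 12 called probes lay between 0.514 and 0.571.

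Among membrane components, BAMBI, a pseudoreceptor that blocks TGF-β family receptors, was the one called higher by the widest margin. It read 8.80, 9.27 and 8.54 in Control tumors against 9.57, 9.81 and 9.72 with DFX, without overlap, and its log2 fold change was 0.83 with a standard error of 0.20 (limma, unadjusted p = 0.00632, adjusted p = 0.514). TGFB1, which encodes the TGF-β1 ligand, read 10.41, 10.72 and 10.87 against 10.20, 10.20 and 9.95, a change of -0.55 (limma, unadjusted p = 0.0127, adjusted p = 0.514). TGFB2, another ligand, changed by 0.29. ENG, the coreceptor endoglin, changed by -1.09 with a standard error of 0.29, but only 1 DFX array had it well above background and the change ranged from -1.35 to -0.34 over the alternatives. One of several BMPR1A probes, for a BMP type I receptor, was called at -0.43, while the brightest probe of that gene changed by -0.054. The list of ligands and receptors had 4 of 24 probes called, beside 8.41% of all tested probes.

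Between membrane and nucleus, shares of probes called are again read beside the 8.41% of all tested probes. The deubiquitinase USP4, which stabilizes the TGF-β type I receptor, was at 0.33, the one call among 18 probes of other ligases and deubiquitinases. CTDSPL, a small C-terminal domain phosphatase that dephosphorylates SMADs, was at 0.43, the one call among 7 phosphatase probes. For RANBP3, a nuclear export factor for SMAD2 and SMAD3, one probe was called at -0.52 and its brightest probe was at 0.22, so the probes disagreed in direction. Calls for BAMBI, ENG, TGFB1 and IL11 held under every alternative that tested them, and the other 8 were lost under at least 1.

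Values of the target genes lay on both sides of 0. Among TGF-β targets 3 of 12 probes were called, beside 8.41% of all tested probes. ANGPTL4, an angiopoietin-like secreted protein that hypoxia and PPAR factors also induce, was at 0.75, while the cytokine IL11 was at -0.50 and the AP-1 subunit JUNB at -0.54. Among BMP targets 1 of 10 probes was called, and 7 of the 8 tested genes were lower by value, with a median of -0.15. The share of all names lower by value was not counted beside this. Of the lower genes, HEY1 (-0.071) and ATOH8 (-0.046) were near 0, and ID3 alone had groups that did not overlap. ID3, a helix-loop-helix inhibitor of differentiation, was the called one, at 7.42, 7.84 and 7.77 under vehicle and 7.32, 7.22 and 6.97 under DFX (log2 fold change -0.51, standard error 0.16, limma, unadjusted p = 0.0205, adjusted p = 0.546). That call was lost without Control replicate 2 or 3, without DFX replicate 3, and with the replicate number as a block. Its values were -0.63 to -0.41 with a tumor left out. ID1 and ID2 are named beside it after their values were seen. ID1 was at 0.26 and the brightest ID2 probe at -0.77, and the groups of both overlapped.

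**Figure D4:**
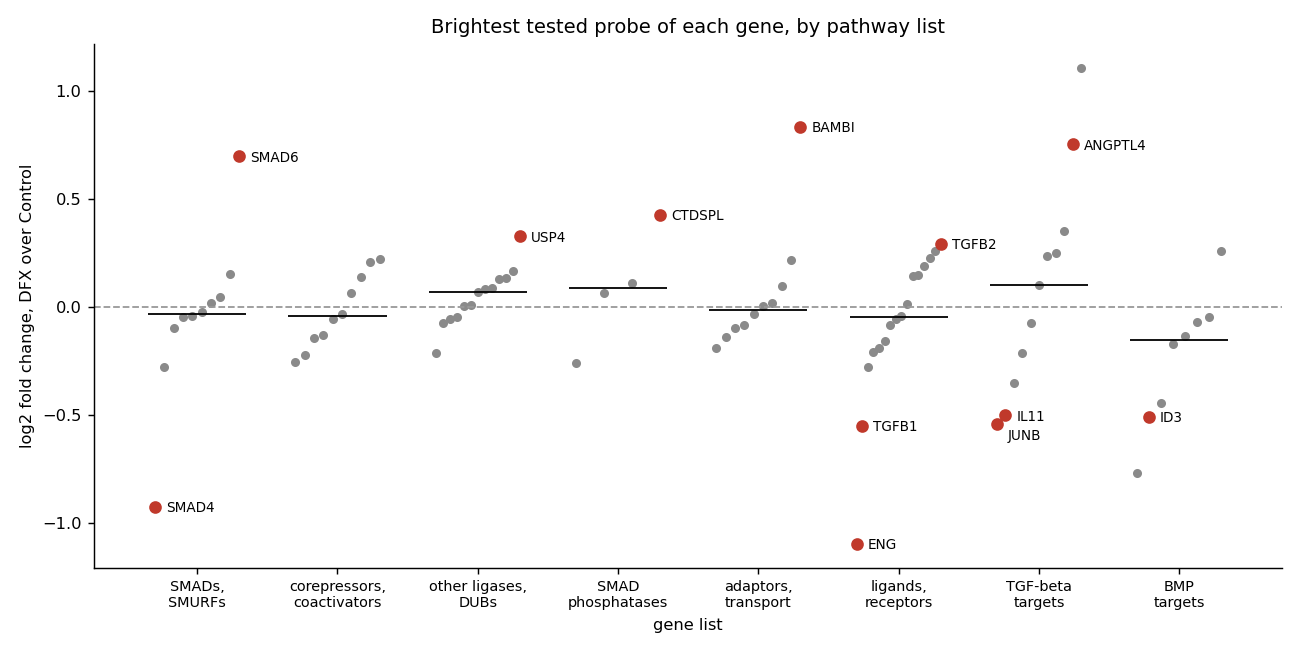
Log2 fold change of DFX over Control (y axis) for the brightest tested probe of each SMAD and SMURF gene and of each gene in the 7 pathway lists (x axis), red and named where the unadjusted limma p was under 0.05, with black lines at list medians. SMAD6 and BAMBI stand above their list medians at 0.70 and 0.83. SMAD4 and ENG are plotted at -0.92 and -1.09, but were well above background on 0 and 1 of the 3 DFX arrays, so their place is uncertain.

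Bulk tumor RNA cannot tell fewer cells of a type from less RNA per cell. Probe annotation is to the human genome, whereas fibroblasts, leukocytes, endothelium and red blood cells of a xenograft belong to the mouse host. Sums for those lists are therefore not read as levels of the host cells. How far mouse RNA bound the probes was not tested. The ductal epithelial markers had 10 of 10 genes well above background on all arrays, so the labelled cell type was present. Of these genes 3 were called higher (KRT18, KRT8 and EPCAM), with a median log2 fold change of 0.20. Their summed log2 level was 19.54 to 19.65 in the Control and 19.63 to 19.64 in the DFX tumors. By brightest probe, 1884 of all 23810 tested names were called, and the marker counts are read beside that share. Fibroblast markers summed to 13.75 to 14.47 and 13.63 to 13.94. Of the 8 tested genes 1 was called higher and 2 lower, and POSTN and PDGFRB were well above background nowhere. Leukocyte markers summed to 10.97 to 11.19 and 11.04 to 11.28 with no gene called, and CSF1R and CD163 were well above background nowhere. Endothelial markers summed to 9.09 to 9.96 and 9.31 to 9.39. PECAM1, of 5 tested genes, was called higher, and KDR was well above background nowhere. Red blood cell markers were the list whose groups stood apart, at 12.72 to 12.97 in the Control and 11.61 to 11.68 in the DFX tumors. HBA2 and HBD, of 5 tested genes, were called lower. The part of any of these cell types in the SMAD6 and SMAD4 differences was not tested.

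**Figure D5:**
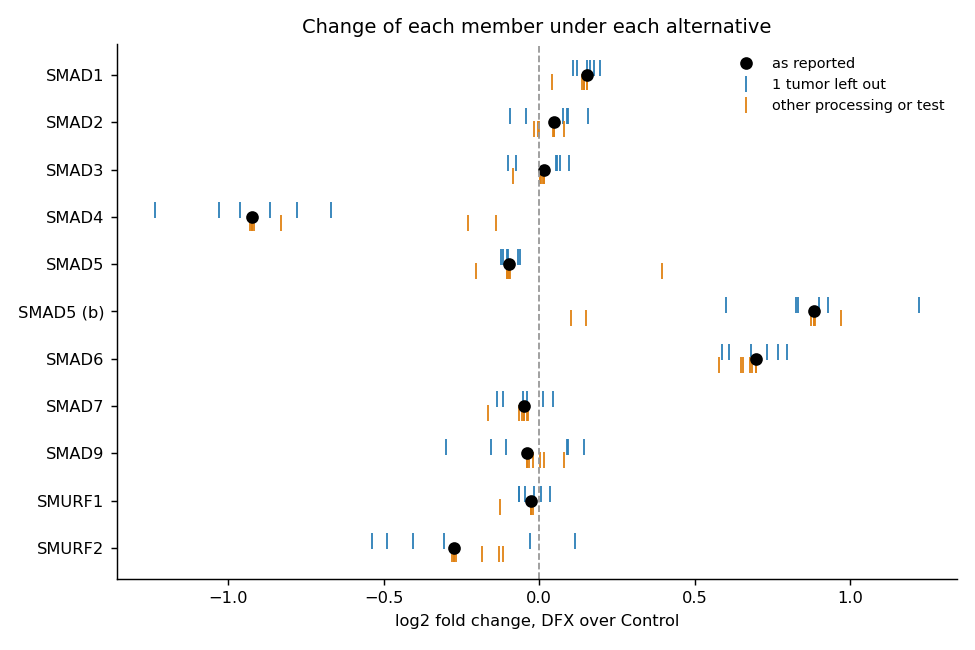
Log2 fold change of DFX over Control (x axis) of each tested member (y axis) as reported (black), with 1 tumor left out (blue) and under other processing or tests (orange). SMAD6 stays between 0.58 and 0.80 throughout, while the SMAD2, SMAD3, SMAD7, SMAD9, SMURF1 and SMURF2 values fall on both sides of 0. The main SMAD5 probe stays below 0, and the SMAD5 value above 0 is the average of both SMAD5 probes.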

How the data were processed

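Total RNA of 3 Control and 3 DFX tumors was hybridized to one-color 60-mer arrays. The authors deposited scanner intensities per spot, written by Agilent Feature Extraction 10.7.1.1 per the file headers (the submitters' processing notes name 9.5.1.1), with a p-value against background and flags per spot, and a deposited table of their normalized intensities. Starting from the processed signal, the log2 values of 58717 non-control spots were quantile-normalized, 1398 flagged spot values dropped and the spots of each probe averaged. A probe was tested if its background p-value was below 0.05 on each of the 6 arrays (31807 of 50599). That filter has 2 sides and kept 1201 probes that were not positive on some array. Groups, taken from the sample labels, were compared with limma 3.58.1 (R 4.3.3), and p-values were adjusted by the Benjamini-Hochberg method. The prior degrees of freedom were 2.04. The authors' table served as an alternative. Its median distance, 0.185%, was taken to linear rather than log2 signals, quantile-normalized with the flagged spots kept. No such percentage was taken against the main processing.

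The fold bound for a probe dim in one group divides the mean of the brighter group by a floor, which on each array is the larger of that probe's signal and the weakest signal flagged well above background. Every member probe is named, with list genes that had a called probe and TGFB1. Members and lists were chosen with earlier results of these data known. Where a gene has several probes, the brightest tested one stands for it. Probe coordinates come from the array annotation and refer to hg19, which the file headers name. Slide rows were read from the same headers. Names were checked against RefSeq of GRCh38.p14, in which 10 of 10 symbols and 13 of 14 probe transcripts were found. The procedure was tested on simulated data. Alternatives changed the scaling, background correction, signal column, filter, flags, values, test, block and probe rule, or left out 1 tumor. The Kruskal-Wallis H test was among the alternatives because the paper's methods give it for in vivo work in general. All 3 tumors of a group are separate samples in the labels. An exact permutation test of 3 against 3 tumors cannot give a p under 0.1, and the number of arrays limits precision.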

Additional observations from a re-analysis of the deposited data

How the results depend on the processing

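No SMAD or SMURF probe passed after adjustment under any setting. Against 3 probes called, 5 were called by the Kruskal-Wallis H test, which adds SMAD1 (0.15) and SMAD5 (-0.096) because its p falls under 0.05 whenever groups do not overlap. Without moderation of the variance, with the raw mean signal, or with probes well above background on all arrays 1 was called, and 1 to 2 with a tumor left out. SMAD6 was called in each of these. The Kruskal-Wallis H test called 26 pathway-list probes instead of 12. SMAD4 lost its call without moderation (-0.92), with the raw mean signal (-0.14) and in 4 of 6 fits with a tumor left out (-0.96 to -0.67 in these, -1.24 to -0.67 in all 6). The second SMAD5 probe lost its call without moderation (0.88), with normexp correction (0.15) and with the raw mean signal (0.10), and ranged from 0.60 to 1.22 with a tumor left out. Averaging the SMAD5 probes turned that gene to 0.39. Signs near 0 turned for SMAD2 with median scaling (-0.018), normexp (-0.0013) and raw signal (-0.0046), for SMAD3 with median scaling (-0.086), and for SMAD9 with 75th percentile scaling (0.078), normexp (0.014) and raw signal (0.0022). With a tumor left out, values ranged from -0.094 to 0.16 for SMAD2, -0.10 to 0.097 for SMAD3, -0.14 to 0.045 for SMAD7, -0.30 to 0.14 for SMAD9, -0.065 to 0.035 for SMURF1 and -0.54 to 0.12 for SMURF2. The median of the 10 genes was -0.11 with median scaling and -0.067 to 0.078 with a tumor left out. The causes were not tested.

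Replicate numbers did not pair the tumors, since the deviations of same-numbered tumors correlated at 0.0158 to 0.0274. With the replicate block 3 member probes and 8 pathway-list probes were called, and SMAD6 stayed at 0.70. Signal over background limits SMAD4, SMAD9, SMURF2 and the second SMAD5 probe, which were not well above background on every array.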
